A study of Mus musculus with 12 samples.

Results

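Messenger RNA of 10 genes of the Bcl2 family was followed through a 2-step supernatant transfer between mouse pancreatic cells. The members were chosen by name: 5 BH3-only genes (Bbc3, Pmaip1, Bmf, Bcl2l11 and Bid), 2 effectors (Bax and Bak1) and 3 anti-apoptotic genes (Bcl2, Bcl2l1 and Mcl1). All 10 were found once, by symbol, among the 14360 genes present in both count tables (16386 genes for PSC4 and 15309 for KPC4), and all 10 passed the filter on low counts in both lines.

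PSC4 is a mouse pancreatic stellate cell line, of the stromal cells that can become fibroblasts, and KPC4 is a mouse pancreatic cancer cell line. First, KPC4 cells received 10 µM gemcitabine, a nucleoside analogue used as chemotherapy, or vehicle for 6 h, were washed, and conditioned starvation medium for 14 h. PSC4 cells spent 24 h in that medium, called Gem-SU after the drug and Control-SU after vehicle. Next, PSC4 cells spent 6 h in Gem-SU or Control-SU, were washed, and conditioned fresh starvation medium for 18 h, and untreated KPC4 cells spent 24 h in the resulting Gem-PSC-SU or Control-PSC-SU. Each of the 4 groups held 3 biological replicates, which made 12 libraries of total RNA, and all 4 groups share the conditioned medium and the starvation. Each line is a single line, no group that received the drug without tumour cells was analysed here, and traces of drug and the rest of the supernatant cannot be told apart. The labels do not say what separates the replicates, so that p-values measure the spread between these cultures.

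The Bcl2 family sets the threshold for mitochondrial apoptosis. BH3-only proteins are made or activated under stress and bind their relatives, either blocking the anti-apoptotic proteins or activating the effectors, and active Bax and Bak open the outer mitochondrial membrane so that cytochrome c reaches the caspases. In pancreatic cancer cells the anti-apoptotic members Bcl-xL and Mcl-1 are known for protecting cells from chemotherapy. The measurements below are of mRNA, and much of the family is also regulated as protein. Several members make isoforms of opposing or differing activity, and the gene counts sum over them.

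Promoter sequence is shown for the member that fell most in PSC4 and for a pair of members that rose there and hold the same short element. RefSeq (build GRCm38.p6) gave a window for 9 of the 10 members, Pmaip1 having no entry, and 16 windows in all, because some genes have several starts. Each window spans 250 bases before to 50 bases after a start, 300 bases in all. The submitters' processing notes name build GRCm39, so these coordinates were not joined to the data. Below are the 250 bases before the start, in the direction of the gene, for Bmf (chr2:118544588-118544837, minus strand), Bbc3 (chr7:16310011-16310260, plus strand) and Bcl2l11 (chr2:128125788-128126037, plus strand), with the matched motif in capitals.
Bmf: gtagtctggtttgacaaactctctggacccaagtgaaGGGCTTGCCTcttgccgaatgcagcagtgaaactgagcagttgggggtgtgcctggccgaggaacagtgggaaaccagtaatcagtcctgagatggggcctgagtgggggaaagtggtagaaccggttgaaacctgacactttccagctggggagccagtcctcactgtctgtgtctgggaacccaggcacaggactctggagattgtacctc
Bbc3: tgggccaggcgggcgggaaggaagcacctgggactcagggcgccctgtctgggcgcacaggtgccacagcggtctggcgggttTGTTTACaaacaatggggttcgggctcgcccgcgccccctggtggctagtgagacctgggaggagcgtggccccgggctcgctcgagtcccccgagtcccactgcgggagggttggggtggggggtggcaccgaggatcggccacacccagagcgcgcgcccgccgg
Bcl2l11: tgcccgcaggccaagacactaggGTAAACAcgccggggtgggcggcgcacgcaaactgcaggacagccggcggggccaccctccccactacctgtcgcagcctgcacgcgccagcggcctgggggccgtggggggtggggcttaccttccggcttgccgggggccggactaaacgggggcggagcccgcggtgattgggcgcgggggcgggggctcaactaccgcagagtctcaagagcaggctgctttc

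The capitals in the Bmf window mark a p53 half-site, whose pattern is met on both strands, at -213 to -204 counted from the base before the start as -1. Those in Bbc3 mark the FOXO element TGTTTAC at -167 to -161, and those in Bcl2l11 the same element on the other strand, at -227 to -221. These motifs were chosen after the values were seen, and both strands were searched. The p53 half-site lay in 2 of the 16 windows (Bax and 1 of those of Bmf), against 8.36% of all 32851 RefSeq windows. The FOXO element lay in 2 of the 16 (Bbc3 and Bcl2l11), against 3.65% of all windows. The AP-1 element TGANTCA lay in 0 of the 16, against 7.81%. A match is a string of letters and was not tested as a binding site.

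The libraries held between 26354328 and 38138356 counts, and no pair of replicates agreed within sampling noise (chi-square per degree of freedom at least 30.4). The labels of the lines matched the sums of their markers. Of 12 stellate and fibroblast markers, 11 were in the PSC4 table and 5 in the KPC4 table, with summed levels of 6074 to 7454 CPM (counts scaled to a common library size) in PSC4 with Control-SU and 16.65 to 33.22 CPM over the 6 KPC4 libraries. Of 10 tumour epithelium markers, 9 were in the KPC4 table at 5830 to 7467 CPM summed and 6 in the PSC4 table at 12.35 to 16.65 CPM, with Epcam and Cdh1 listed in the KPC4 table. Markers of other cells were low in every library, and in PSC4 their sums were higher with Gem-SU. The 4 endothelial markers summed to 0.6137 to 1.443 CPM with Control-SU and 2.62 to 4.703 CPM with Gem-SU, where Kdr rose (log2 2.58, adjusted p = 0.003394, edgeR), and the 3 of 5 leukocyte markers in the PSC4 table, none of them called in edgeR, summed to 0.2828 to 0.6137 and 0.9537 to 1.643 CPM. In KPC4 the leukocyte markers summed to 0.2115 to 0.6369 CPM with Control-PSC-SU and 0.7325 to 1.012 CPM with Gem-PSC-SU, and the endothelial ones to 0.6696 to 1.408 and 1.135 to 3.68 CPM. The sum of the stellate markers of PSC4 went the other way, to 1876 to 2871 CPM with Gem-SU, below all Control-SU libraries. In edgeR 8 of the 10 tested were called lower, against 22% of all genes, and 2 had positive values. Acta2 went from a mean of 15.75 CPM with Control-SU to 26.08 CPM with Gem-SU, and Des from 2.847 to 3.27 CPM. The part of these markers in the results below was not tested. The levels of genes given in CPM were scaled to library totals and TMM factors computed over the 12 libraries together, so that they can be read across lines.

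In PSC4, 9 of the 10 members differed between Gem-SU and Control-SU: 6 rose and 3 fell, and the exception was Bax. The rises ran from 1.452-fold for Bcl2l11 to 24.79-fold for Pmaip1, and the falls from 1.427-fold for Bcl2 to 30.91-fold for Bmf. They cut across the roles, with 4 BH3-only genes and 2 anti-apoptotic genes higher and 1 gene of each of the 3 roles lower. Genes with an adjusted p below 0.05 were called, by the quasi-likelihood test of edgeR with Benjamini-Hochberg adjustment over all genes. The background is high: 46.3% of the 13347 genes tested were called, 24.3% higher and 22% lower. The same 9 members were called by DESeq2, against 43.7% of all genes, and with the replicate block, against 54.4% (27.9% higher and 26.6% lower). Groups did not overlap for 9 members, against 56.4% of all genes. In bulk RNA, a change in every cell and a change in the share of cells that carry a transcript cannot be told apart.

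**Figure D1:**
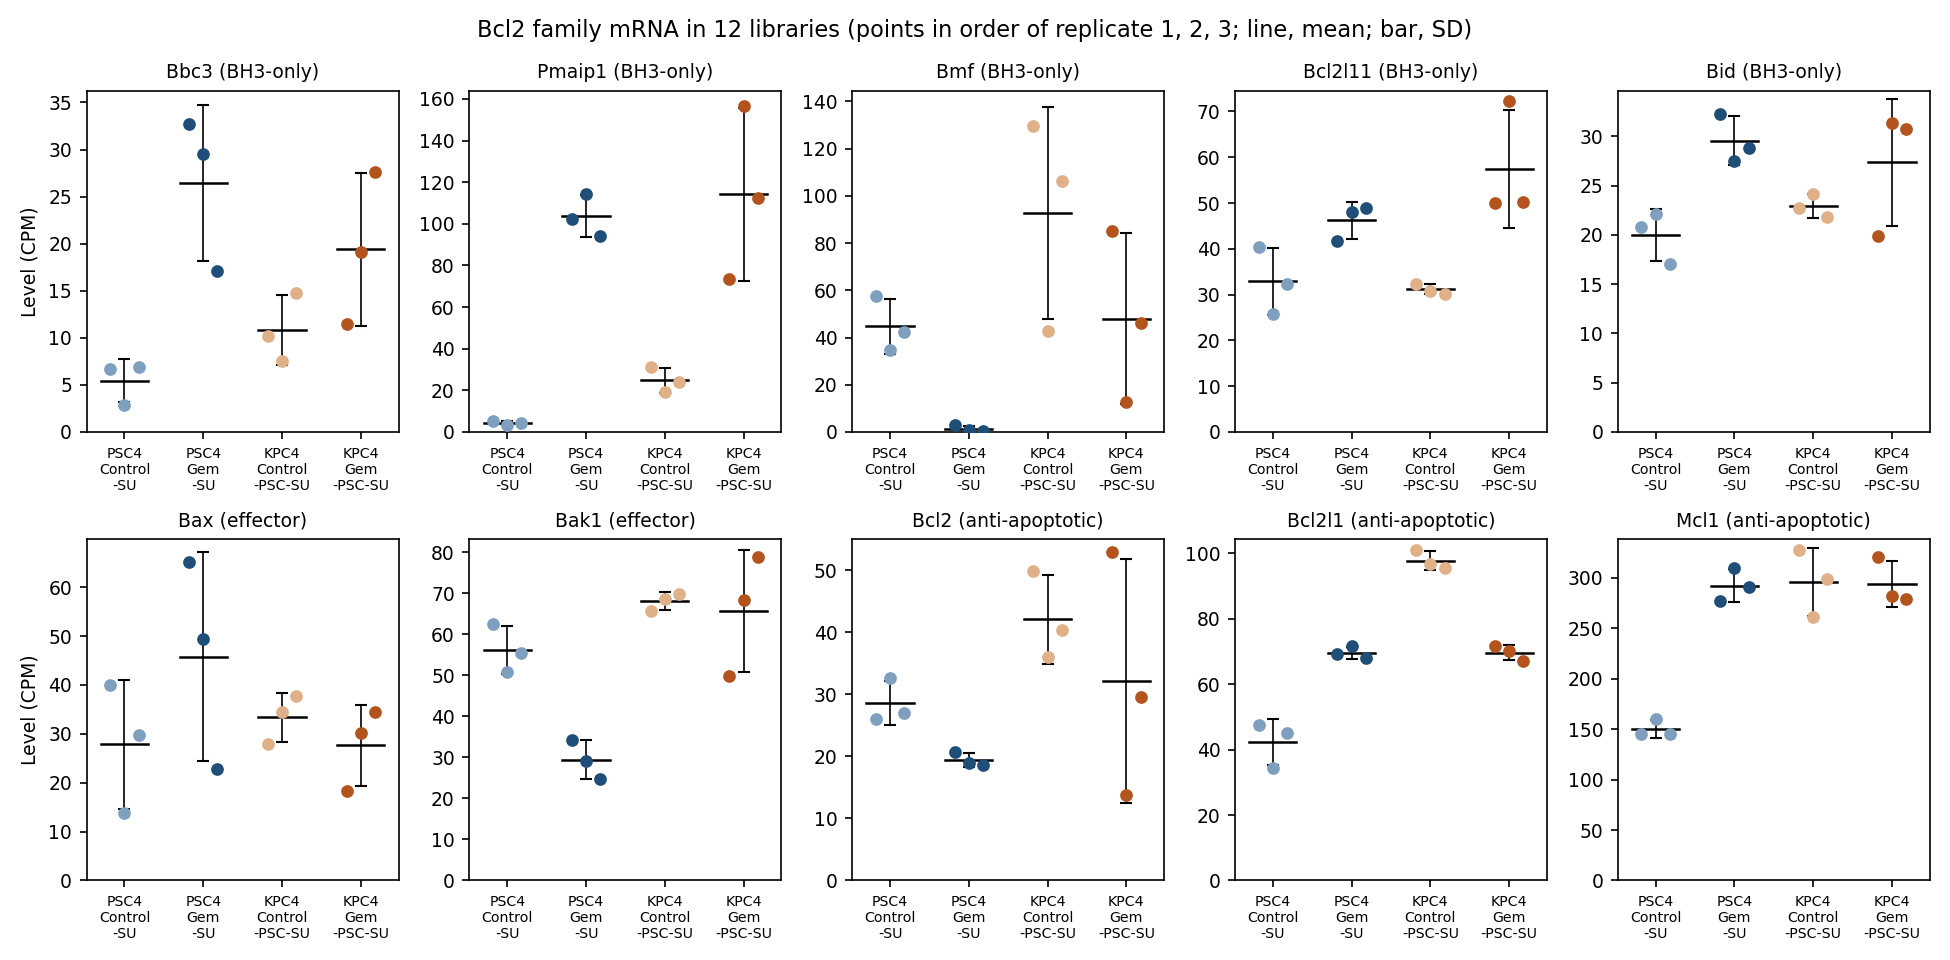
Level in CPM (linear axis from 0) of each of the 10 members in the 12 libraries, with points in the order of replicates 1, 2 and 3, the mean as a line and the SD as a bar. Pmaip1 was below 5.4 CPM in all PSC4 Control-SU libraries and above 94 CPM in all Gem-SU ones, and Bmf was at or below 2.8 CPM with Gem-SU.

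Pmaip1 (ENSMUSG00000024521) encodes Noxa, a p53-inducible BH3-only protein that binds mainly Mcl-1. In PSC4 it stood at 5.348, 3.456 and 4.132 CPM with Control-SU and at 102.1, 114.5 and 94.38 CPM with Gem-SU. Every Gem-SU library lay far above every control, and the log2 fold change was 4.63 (SE 0.208, adjusted p = 1.446e-05, edgeR). It ranked 94th from the top among the 13347 genes by log2 fold change.

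Bbc3 (ENSMUSG00000002083) encodes Puma, also a p53-inducible BH3-only protein, which binds all the anti-apoptotic proteins. It was at 6.663, 2.828 and 6.853 CPM with Control-SU and at 32.68, 29.54 and 17.10 CPM with Gem-SU. The groups did not overlap, although the third Gem-SU library was well below the other two, and Bbc3 rose 5.02-fold (log2 2.33, SE 0.375, adjusted p = 0.00148, edgeR). Bcl2l11 (ENSMUSG00000027381), which encodes Bim, a strong activator of the effectors, was at 40.42, 25.86 and 32.36 CPM with Control-SU and at 41.65, 48.11 and 48.87 CPM with Gem-SU. The lowest Gem-SU library was barely above the highest control, and the log2 fold change was 0.54 (SE 0.186, adjusted p = 0.04194, edgeR). Bid (ENSMUSG00000004446), the protein that links death receptors to mitochondria after cleavage, was at 20.84, 22.15 and 17.05 CPM with Control-SU and at 32.30, 27.46 and 28.84 CPM with Gem-SU. Its groups were separate, with a log2 fold change of 0.61 (SE 0.173, adjusted p = 0.02021, edgeR).

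Bmf (ENSMUSG00000040093), a BH3-only protein known from detachment and cytoskeletal stress, went the other way. It stood at 57.55, 34.59 and 42.20 CPM with Control-SU and at 2.797, 0.9095 and 0.3946 CPM with Gem-SU, where the libraries held 111, 31 and 12 counts. All Gem-SU libraries were near the bottom of the measurable range, and they differed among themselves by more than the controls did, the SD being 92.52% of the mean. Bmf fell 30.91-fold (log2 -4.95, SE 0.602, adjusted p = 0.0004231, edgeR) and was the 10th lowest of the 13347 genes by log2 fold change. Over all the settings tried, including each library left out, Pmaip1, Bbc3 and Bmf kept their calls in PSC4.

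The effectors differed from each other. Bak1 (ENSMUSG00000057789), which sits in the outer mitochondrial membrane, was at 62.40, 50.84 and 55.48 CPM with Control-SU and at 34.32, 29.13 and 24.76 CPM with Gem-SU. Its groups did not overlap, and it fell 1.85-fold (log2 -0.89, SE 0.169, adjusted p = 0.003308, edgeR). Bax (ENSMUSG00000003873), the effector that moves from the cytosol to mitochondria, was at 39.95, 13.82 and 29.68 CPM with Control-SU and at 65.15, 49.40 and 22.82 CPM with Gem-SU. Its groups overlapped widely, and its log2 fold change of 0.77 (SE 0.437, 95% interval -0.09 to 1.63) did not pass (adjusted p = 0.1796, edgeR), so that neither no change nor a rise to over 2-fold lies outside the interval.

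Among the anti-apoptotic members, Mcl1 (ENSMUSG00000038612), a short-lived protein and the main partner of Noxa, was at 145.0, 160.1 and 144.8 CPM with Control-SU and at 276.7, 309.6 and 291.0 CPM with Gem-SU. The replicates were tight in both groups, and Mcl1 rose 2.013-fold (log2 1.01, SE 0.139, adjusted p = 0.0007207, edgeR). Bcl2l1 (ENSMUSG00000007659), which encodes Bcl-xL, was at 47.40, 34.34 and 45.12 CPM with Control-SU and at 69.08, 71.52 and 67.94 CPM with Gem-SU. It rose 1.699-fold with no overlap (log2 0.77, SE 0.156, adjusted p = 0.004546, edgeR). Bcl2 (ENSMUSG00000057329), the founding member, was at 26.07, 32.61 and 27.08 CPM with Control-SU and at 20.69, 18.95 and 18.58 CPM with Gem-SU. It fell 1.427-fold (log2 -0.51, SE 0.167, adjusted p = 0.03394, edgeR), again with separate groups.

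The 3 smallest changes in PSC4 depended on single libraries. Bcl2l11 lost its call without Control-SU replicate 2 (adjusted p = 0.1258, edgeR) or 3 (0.148) or without Gem-SU replicate 2 (0.1307) or 3 (0.1083), and Bcl2 lost it without the same libraries (0.06612, 0.05695, 0.1228 and 0.09814). Bid lost it without Control-SU replicate 3 (adjusted p = 0.1026) or Gem-SU replicate 2 (0.05106, edgeR). With 1 fit over all 12 libraries the calls of Bcl2l11 (adjusted p = 0.06547) and Bcl2 (0.2145) ended as well, leaving 7 members. All 3 genes kept their direction each time. The authors' deposited table, which lists each member once, gives log2 fold changes of 4.51 for Pmaip1, -4.99 for Bmf and 0.66 for Bcl2l11, and an adjusted p of 0.2273 for Bax.

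In KPC4, exposed to the medium of the stellate cells, no member passed in edgeR's fit of the 6 KPC4 libraries between Gem-PSC-SU and Control-PSC-SU. No gene at all did: 0 of 13236 (0%) had an adjusted p below 0.05 in edgeR, 2251 (17%) had an unadjusted p below 0.05, and DESeq2 called 822 genes, 5.95% of those it tested. At an unadjusted p below 0.05 stood 3 members, Pmaip1, Bcl2l11 and Bcl2l1, and the same 3 had groups that did not overlap, against 22.8% of all genes. Same-numbered KPC4 libraries deviated together from their group means, and a fit that took the number as a block passed 3 members: Pmaip1 and Bcl2l11 rose and Bmf fell. That fit called 8.85% of all genes, 6.07% higher and 2.78% lower. The block was taken up from the same counts that it then tested, so its p-values may be too small. Single libraries also decided the count in KPC4: leaving out Gem-PSC-SU replicate 1 gave 1129 called genes and 2 called members, and leaving out Control-PSC-SU replicate 2 gave 174 and 1.

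**Figure D2:**
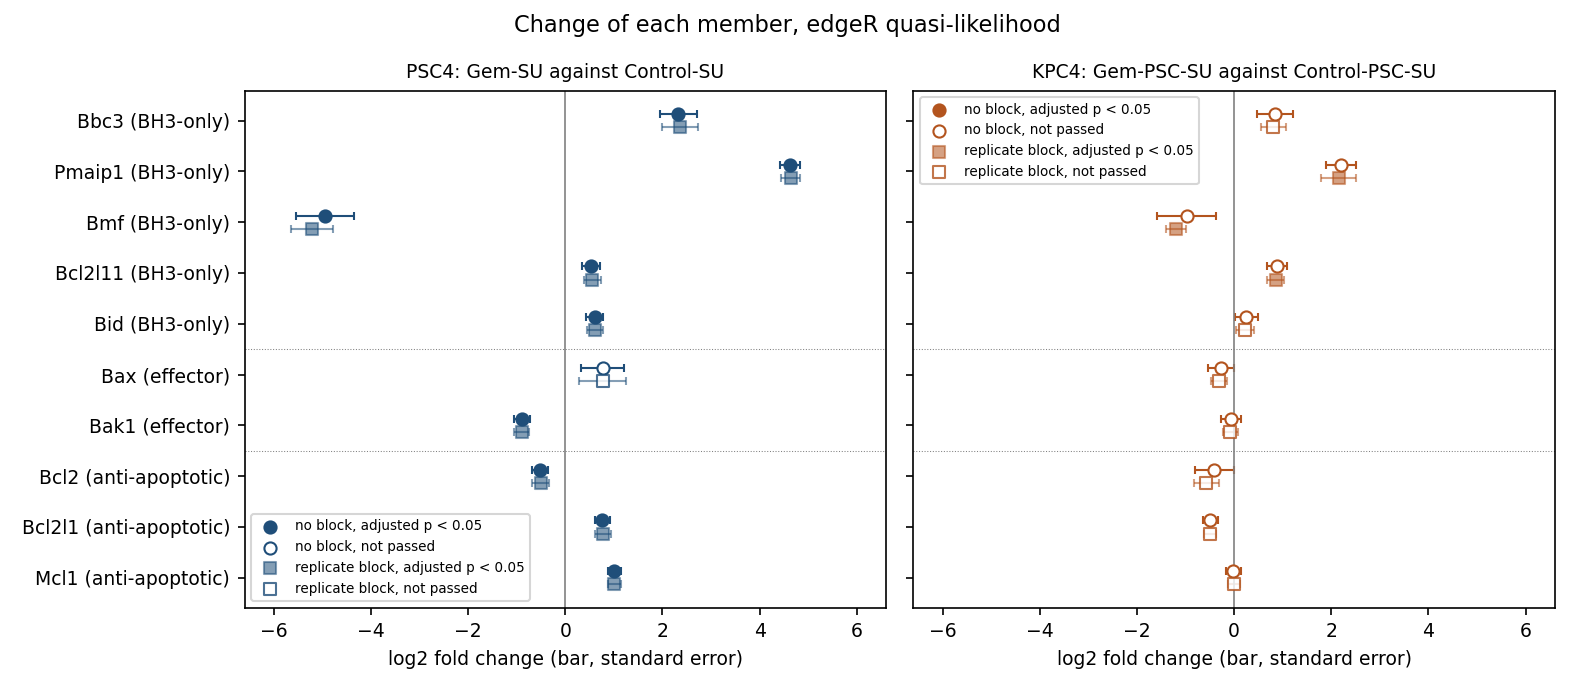
log2 fold change with its standard error for each member in PSC4 (left) and KPC4 (right), without (circles) and with (squares) the replicate number as a block; filled symbols had an adjusted p below 0.05. In PSC4 all members but Bax are filled, and in KPC4 only the blocked values of Pmaip1, Bmf and Bcl2l11 are.

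Pmaip1 was at 31.38, 19.40 and 23.90 CPM with Control-PSC-SU and at 73.51, 156.4 and 112.4 CPM with Gem-PSC-SU. All Gem-PSC-SU libraries were above the highest control, and the log2 fold change of 2.20 (4.592-fold, SE 0.316, unadjusted p = 7.493e-05) had an adjusted p of 0.1064 in edgeR without the block. With the block it rose by 2.15 (SE 0.356, adjusted p = 0.02516, edgeR). Its call was also reached with DESeq2 (adjusted p = 1.431e-08), in 1 fit over the 12 libraries (0.00355, edgeR) and after leaving out either Control-PSC-SU replicate 2 (0.03733) or Gem-PSC-SU replicate 1 (0.002192). The authors' deposited table gives it a log2 fold change of 2.23 with an adjusted p of 8.947e-09, and calls 5.17% of its genes.

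Bcl2l11 was at 32.37, 30.82 and 30.24 CPM with Control-PSC-SU and at 50, 72.25 and 50.14 CPM with Gem-PSC-SU. The controls lay close together and below every Gem-PSC-SU library. Its log2 fold change was 0.89 (SE 0.212, adjusted p = 0.1244, edgeR) without the block and 0.86 (SE 0.174, adjusted p = 0.0273, edgeR) with it. It passed as well with DESeq2 (adjusted p = 0.007587), in 1 fit over the 12 libraries (0.02721, edgeR) and without Gem-PSC-SU replicate 1 (0.03109). In the authors' deposited table its log2 fold change is 1.27, which is larger than that from the counts, with an adjusted p of 0.005284.

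Bmf was at 129.6, 42.87 and 106.2 CPM with Control-PSC-SU and at 85.05, 12.67 and 46.03 CPM with Gem-PSC-SU. The groups overlapped, but replicate 2 was the lowest and replicate 1 the highest in both, and each Gem-PSC-SU library was below the control of the same number, by log2 ratios of -0.61, -1.76 and -1.21. The log2 fold change was -0.98 (SE 0.609, adjusted p = 0.4347, edgeR) without the block and -1.19 (SE 0.207, adjusted p = 0.01751, edgeR) with it, which was the one setting that called it. In the authors' deposited table it is -0.64 with an adjusted p of 0.7541.

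Bbc3 was at 10.16, 7.493 and 14.78 CPM with Control-PSC-SU and at 11.43, 19.11 and 27.65 CPM with Gem-PSC-SU. The groups overlapped, and its log2 fold change of 0.84 (95% interval 0.11 to 1.56) did not pass (adjusted p = 0.2934 without and 0.08487 with the block, edgeR). The interval leaves out no change although the unadjusted p was 0.05011 (edgeR), because it uses a normal quantile, which is narrow for so few libraries. Bid was at 22.76, 24.17 and 21.79 CPM with Control-PSC-SU and at 19.89, 31.37 and 30.76 CPM with Gem-PSC-SU, the first Gem-PSC-SU library lying below all controls, and did not pass either (log2 0.26, 95% interval -0.20 to 0.71, adjusted p = 0.5884, edgeR).

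Bcl2l1 was the anti-apoptotic member whose KPC4 groups separated. It was at 101.0, 96.63 and 95.41 CPM with Control-PSC-SU and at 71.68, 70.04 and 67.14 CPM with Gem-PSC-SU. Both groups were tight, with SDs of 3.003% and 3.302% of the mean, and the log2 difference was -0.49 (SE 0.154, unadjusted p = 0.01136). It did not pass after adjustment, with an adjusted p of 0.1826 without and 0.0521 with the block (edgeR), and the authors' deposited table gives 0.09802. Mcl1 was at 327.6, 261.1 and 298.8 CPM with Control-PSC-SU and at 320.6, 282.0 and 279.5 CPM with Gem-PSC-SU, groups that lay on top of each other (log2 -0.01, 95% interval -0.33 to 0.30, adjusted p = 0.9755, edgeR). Bcl2 was at 49.98, 36.02 and 40.36 CPM with Control-PSC-SU and at 53.04, 13.83 and 29.57 CPM with Gem-PSC-SU. Its second Gem-PSC-SU library was far below the others, and the log2 difference of -0.41 did not pass (95% interval -1.20 to 0.39, adjusted p = 0.6277, edgeR).

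The effectors overlapped in KPC4 as well. Bax was at 27.95, 34.38 and 37.71 CPM with Control-PSC-SU and at 18.31, 30.18 and 34.38 CPM with Gem-PSC-SU (log2 -0.27, 95% interval -0.80 to 0.25, adjusted p = 0.6205, edgeR). Bak1 was at 65.76, 68.68 and 69.90 CPM with Control-PSC-SU and at 49.70, 68.26 and 78.91 CPM with Gem-PSC-SU (log2 -0.06, 95% interval -0.46 to 0.35, adjusted p = 0.9139, edgeR). The Gem-PSC-SU libraries of Bak1 spread to both sides of the controls, replicate 1 lying lowest as it did for Bax, Bbc3, Bcl2l11, Bid and Pmaip1.

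**Figure D3:**
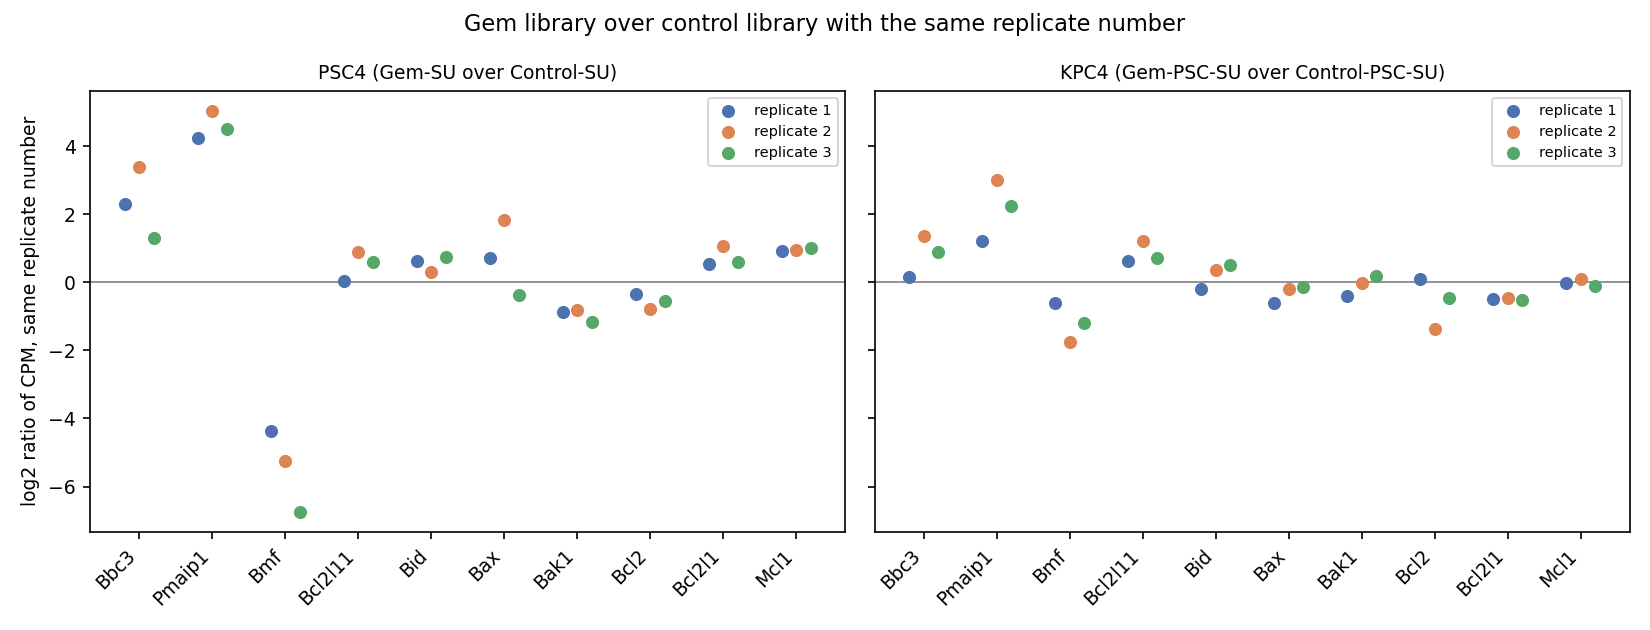
log2 ratio of the CPM of each Gem library to the control library with the same replicate number, for PSC4 (left) and KPC4 (right), 3 points a member. In KPC4, replicate 1 has the smallest ratio in size for Pmaip1 (1.23), Bmf (-0.61) and Bcl2l11 (0.63), while the 3 ratios of Bcl2l1 lie between -0.51 and -0.46.

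By replicate number, Pmaip1 in KPC4 was higher with Gem-PSC-SU by log2 ratios of 1.23, 3.01 and 2.23, Bcl2l11 by 0.63, 1.23 and 0.73, and Bbc3 by 0.17, 1.35 and 0.90. Replicate 1 had the smallest ratio for all 3 genes, and for Bmf too. The numbers pair the KPC4 libraries by their values alone. In PSC4 the deviations of same-numbered libraries correlated at 0.428, -0.0548 and 0.102, and the numbers were not taken to pair the libraries. The ratio of Bax in PSC4 took both signs, at 0.71, 1.84 and -0.38.

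Whether the response of PSC4 to Gem-SU differed from that of KPC4 to Gem-PSC-SU was tested in 1 fit of the 12 libraries. The interaction is the response of PSC4 minus that of KPC4, and cell line and medium cannot be told apart in it. It was called for 4 of the 10 members, 3 higher in PSC4 and 1 lower, against 9.85% of 13632 genes (4.75% higher and 5.1% lower). Pmaip1 responded more strongly in PSC4, by 2.39 on the log2 scale (SE 0.381, adjusted p = 0.002597, edgeR). So did Bcl2l1, by 1.21 (SE 0.213, adjusted p = 0.004289), and Mcl1, by 0.97 (SE 0.208, adjusted p = 0.01236, edgeR). For Bcl2l1 the libraries moved in opposite directions, each Gem-SU library above the PSC4 controls and each Gem-PSC-SU library below the KPC4 controls. The fall of Bcl2l1 in KPC4 alone was not called in any setting. Bmf had an interaction of -4.04 (SE 0.962, adjusted p = 0.02126, edgeR), which is a deeper fall in PSC4. Its call ended without PSC4 Control-SU replicate 1 (adjusted p = 0.0523), PSC4 Gem-SU replicate 2 (0.06683) or 3 (0.05109) or KPC4 Control-PSC-SU replicate 3 (0.05465, edgeR), at log2 values from -4.15 to -3.64.

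Bak1 was near the threshold of the interaction, at -0.88 (SE 0.269, adjusted p = 0.05514, edgeR), and passed it with the replicate block (-0.86, adjusted p = 0.01588), where 5 members and 21.9% of all genes were called (9.95% higher and 12% lower). It also passed with DESeq2's size factors (adjusted p = 0.04918) and test (0.01689), and without PSC4 Gem-SU replicate 1 (0.03262) or KPC4 Gem-PSC-SU replicate 1 (0.01391, edgeR), but not in the other fits. No difference between the lines was called for Bcl2l11 (-0.39, 95% interval -0.95 to 0.16), Bid (0.31, -0.25 to 0.86), Bax (0.99, -0.11 to 2.09), Bcl2 (-0.17, -1.12 to 0.78) or Bbc3 (1.44, 0.33 to 2.54, adjusted p = 0.1281, edgeR). These intervals, which use a normal quantile and are not adjusted for the number of genes, still hold differences of up to 0.86 for Bid and 2.54 for Bbc3.

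The starting levels of the lines differed for 3 members in edgeR. With the control media, KPC4 was higher than PSC4 in Pmaip1 (24.89 ± 6.053 against 4.312 ± 0.9589 CPM, SD, n = 3), Bcl2l1 (97.67 ± 2.933 against 42.29 ± 6.976 CPM) and Mcl1 (295.8 ± 33.34 against 149.9 ± 8.761 CPM). The log2 differences were 2.53 (adjusted p = 7.012e-06), 1.21 (2.086e-05) and 0.98 (0.0001115, edgeR), against 42.9% of genes called in this contrast, 20.6% higher in KPC4 and 22.3% lower. Bbc3, at 10.81 ± 3.689 against 5.448 ± 2.271 CPM with groups that did not overlap, did not pass in edgeR (log2 0.99, adjusted p = 0.06515) but did with DESeq2 (0.0249) and without KPC4 Control-PSC-SU replicate 2 (0.0446, edgeR). The 3 called genes are among the 4 members with an interaction, and that contrast shares the control libraries with this one. Cell line, medium and deposited table go together here and cannot be told apart.

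Between the 2 groups that received the gemcitabine-derived media, a contrast chosen after seeing the data, those 3 genes were close. Pmaip1 was at 114.1 ± 41.49 CPM in KPC4 and 103.6 ± 10.14 CPM in PSC4 (SD, n = 3; log2 difference 0.14, 95% interval -0.37 to 0.65). Bcl2l1 was at 69.62 ± 2.299 and 69.52 ± 1.83 CPM (log2 0.00, 95% interval -0.29 to 0.30), and Mcl1 at 294.0 ± 23.04 and 292.4 ± 16.50 CPM (log2 0.01, 95% interval -0.28 to 0.30). In this contrast 47.5% of all genes were called (24.3% higher in KPC4, 23.2% lower), and 2 members were: Bmf, higher in KPC4 by 5.09 (47.91 ± 36.23 against 1.367 ± 1.265 CPM, adjusted p = 0.000139), and Bak1, higher by 1.16 (65.63 ± 14.78 against 29.40 ± 4.782 CPM, adjusted p = 0.0002382, edgeR).

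Ordered by level over the 4 groups, Mcl1 and Bcl2l1 had their lowest value in PSC4 with Control-SU, Bmf, Bak1 and Bcl2 theirs in PSC4 with Gem-SU. For Mcl1 the other 3 groups overlapped with each other, and for Bak1 the upper 3 groups did so neighbour by neighbour. Pmaip1 formed 3 levels, with the gemcitabine-derived groups together at the top, KPC4 controls below and PSC4 controls lowest. Neighbouring groups overlapped throughout for Bax and Bid in this order.

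Levels of different genes were compared per kilobase of exon sequence (union of GENCODE exons). The length of the transcripts expressed is not known here, so the order of genes is approximate. On this scale Mcl1 was the most abundant member in all 4 groups. It was at 43.87 ± 2.563 CPM per kb in PSC4 with Control-SU and between 85.56 and 86.55 in the other 3 groups (means of n = 3). Next in the PSC4 controls came the effectors Bak1 (23.36 ± 2.417 CPM per kb) and Bax (17.65 ± 8.352). Among BH3-only genes in the PSC4 controls, Bmf was the highest (8.525 ± 2.226 CPM per kb) and Pmaip1 the lowest (1.578 ± 0.351). With Gem-SU this order was turned around, with Pmaip1 at 37.94 ± 3.711 and Bmf at 0.2602 ± 0.2408 CPM per kb. In KPC4 with Gem-PSC-SU, Pmaip1 (41.76 ± 15.19 CPM per kb) was above Bmf (9.121 ± 6.897) as well.

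The BH3-only members were set against the anti-apoptotic ones as a single value per library, the mean log2 CPM of the 5 BH3-only genes minus that of the 3 anti-apoptotic genes, described without a test because the members were chosen with results known. In PSC4 it was -1.67, -2.29 and -1.94 with Control-SU and -1.48, -1.82 and -2.17 with Gem-SU. These ranges overlapped, and the means of -1.97 ± 0.314 and -1.82 ± 0.346 (SD, n = 3) differed by 0.15. Without Control-SU replicate 2 the difference was -0.02 and without Gem-SU replicate 1 it was -0.03, so that its sign rested on these libraries. Both sides of the difference moved in PSC4, since Bmf fell while the other BH3-only genes rose, and Mcl1 and Bcl2l1 rose while Bcl2 fell. The log2 change of Bmf was -4.95, at 12 to 111 counts with Gem-SU, and those of the other BH3-only genes ran from 0.54 to 4.63. In the mean, Bmf offset much of their rise, and the value was not computed without it.

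In KPC4 the same value was -1.91, -2.16 and -1.80 with Control-PSC-SU and -1.52, -0.75 and -0.82 with Gem-PSC-SU. All Gem-PSC-SU libraries were above all controls, with means of -1.03 ± 0.427 and -1.96 ± 0.188 (SD, n = 3), a difference of 0.93 against a pooled SD of 0.33. Here none of the 3 anti-apoptotic genes was higher, with log2 differences of -0.49 to -0.01, and 4 of the 5 BH3-only genes had positive values, from 0.26 to 2.20. None of these 8 genes passed in edgeR's fit of the 6 KPC4 libraries without the block; Pmaip1, Bcl2l11 and, with the block alone, Bmf passed in the other fits given above.

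**Figure D4:**
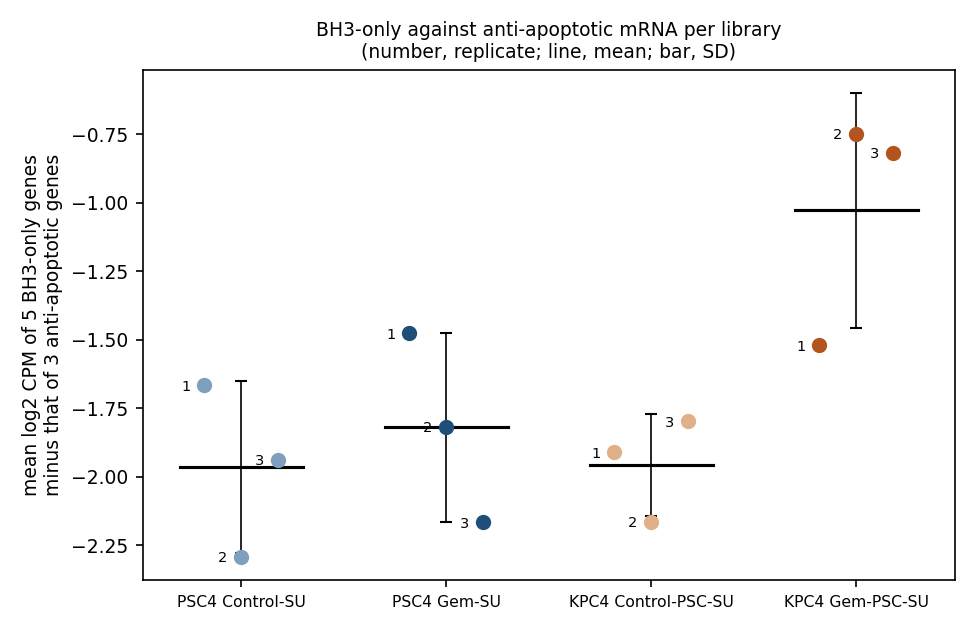
Mean log2 CPM of the 5 BH3-only genes minus that of the 3 anti-apoptotic genes, 1 point a library with its replicate number, the group mean as a line and the SD as a bar. The PSC4 groups overlap, and the KPC4 Gem-PSC-SU libraries lie at -1.52 to -0.75, above the controls at -2.16 to -1.80.

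Other genes of the pathway were counted in 6 lists. Over them 14 of 43 tested genes rose and 9 fell in PSC4, to be read against the 24.3% and 22% of all genes. In PSC4, of 12 genes of the apoptosome and caspases 3 rose and 3 fell, shares close to those of all genes, with a list median of 0.19 against -0.003 over all genes (log2). Apaf1, the scaffold of the apoptosome, rose (log2 1.13, adjusted p = 0.00173), whereas Casp9, the initiator caspase that Apaf1 activates, fell (-1.62, 0.001327, edgeR). Also called were Cycs, cytochrome c, higher, and Casp6 and Casp2, lower. Of 5 inhibitor of apoptosis genes 1 rose and 3 fell (median -0.51): Xiap, the direct caspase inhibitor, fell by 0.81 (adjusted p = 0.01143) and Birc2 by 0.55 (0.02071), and Birc5, survivin, which also serves cell division, rose by 0.59 (0.01221, edgeR).

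Of 7 death receptor and adaptor genes 2 rose and 2 fell in PSC4 (median 0.25), again near the shares of all genes. The receptor genes Tnfrsf10b (log2 2.11, adjusted p = 7.966e-05) and Fas (1.59, 0.000709) were the ones that rose, and the TNF receptor Tnfrsf1a fell (-0.73, 0.006868, edgeR), as did the adaptor Tradd. Of 8 genes for transcription factors of BH3-only genes, 7 were tested, of which 5 rose and 1 fell (median 0.76). Ddit3, which encodes the stress factor Chop, rose by 2.45 (adjusted p = 0.000216) and Atf4 by 1.71 (0.000623, edgeR), beside smaller rises of Trp53, Foxo1 and Foxo3. Trp63 fell, from 166 to 200 counts per library with Control-SU to 1 to 3 counts with Gem-SU.

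Of 6 genes for Mcl-1 turnover and the mitochondrial channel VDAC 1 rose in PSC4, Fbxw7, the substrate receptor of a ubiquitin ligase that acts on Mcl-1 (log2 1.01, adjusted p = 0.001095, edgeR), with a list median of -0.001. Of 13 other genes of the Bcl2 family 6 passed the filter and 2 rose (median 0.31). These were Bcl2l13, a mitochondrial family member (log2 0.72, adjusted p = 0.002312, edgeR), and Bcl2l15, which was at 0 to 4 counts per library with Control-SU and 15 to 21 counts with Gem-SU.

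In KPC4 none of these lists held a called gene in edgeR without the block, and DESeq2 called 2 genes higher, Ddit3 (adjusted p = 7.492e-08) and Fas (0.01267). The list medians were 0.16 for the apoptosome and caspases, 0.46 for the inhibitors of apoptosis, 0.28 for death receptors, 0.46 for the transcription factors, -0.10 for Mcl-1 turnover and VDAC and 0.09 for the other family members, against -0.019 over all genes. With the block 5 of 43 tested genes rose and 1 fell, against 6.07% and 2.78% of all genes. Those that rose were Ddit3 (log2 2.88, adjusted p = 0.02624), Atf4 (1.11, 0.009906), Birc5 (1.57, 0.01583), Bcl2l13 (0.58, 0.04438) and Fas (adjusted p = 0.04148, edgeR). Fas was at 0 to 3 counts per library with Control-PSC-SU and 18 to 21 counts with Gem-PSC-SU, so that its fold is uncertain. Casp6 was the one that fell (-0.89, 0.03328, edgeR).

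**Figure D5:**
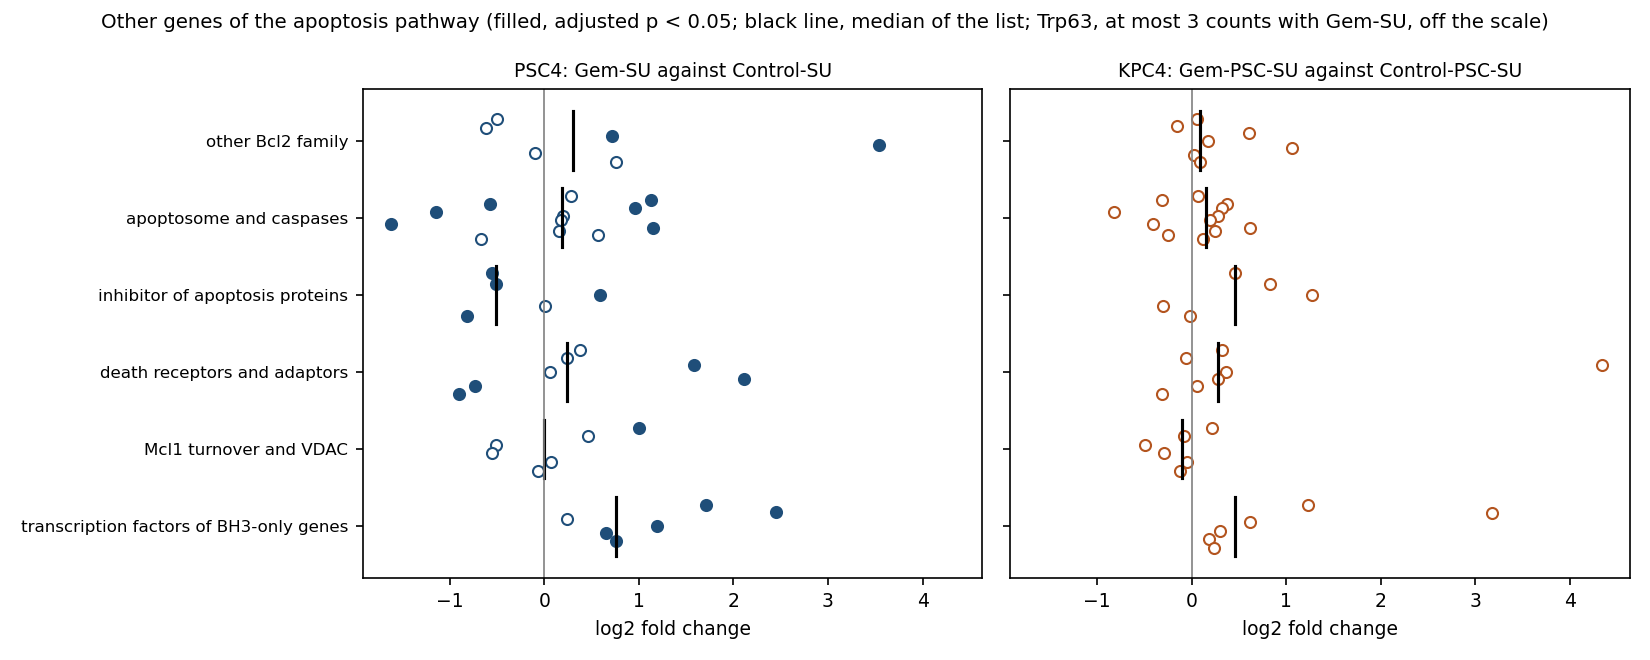
log2 fold change of each tested gene in the 6 pathway lists in PSC4 (left) and KPC4 (right), except Trp63. Trp63, called lower in PSC4 at 1 to 3 counts per Gem-SU library, is off the scale and not drawn. Filled points had an adjusted p below 0.05 without the block and black lines are list medians. Filled points lie on both sides of 0 in PSC4 and none is filled in KPC4, where the point farthest to the right is Fas, at no more than 21 counts per library.

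For each member called in PSC4, the genes with the most similar pattern were sought among 11872 genes, by Pearson's r of log2 CPM centred on each line over the 12 libraries. These libraries share the difference between media, so that high values of r are common, and r is given as a description. Nearest to Pmaip1 were Kcnk5 (0.991) and Btg2 (0.991), and nearest to Bbc3 were Carhsp1 (0.972) and Kctd20 (0.968). Bmf was closest to Slc38a10 (0.995), Wdsub1 (0.995) and Trip10 (0.991). The patterns of Bcl2l11 (Elf2, 0.957; Ets2, 0.943; Zc3h11a, 0.934) and Bid (Ttc1, 0.963; Cycs, 0.960; Eif2b1, 0.960) were matched less closely.

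Bak1 was close to Shisa5 (r 0.967) and Rnh1 (0.966), and the nearest genes were, for Bcl2, Asb3 (0.963), Retsat (0.962) and Ski (0.954) and, for Bcl2l1, Dars (0.957), Zswim1 (0.947) and Tmem135 (0.942). Mcl1 was closest to Pisd-ps1 (0.985), a pseudogene whose reads may be shared with its parent gene, and was also close to Trp53inp1 (0.982). Between members, r over the same 12 libraries was 0.904 for Pmaip1 and Bbc3, -0.89 for Pmaip1 and Bmf, -0.919 for Mcl1 and Bak1, and -0.023 for Bax and Bak1.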

How the data were processed

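Total RNA of 12 cultures was sequenced. Per the labels' protocols this was done on a NovaSeq X Plus by a commercial provider. The submitters' processing notes name FastQC, Trim Galore 0.6.10, cutadapt 5.2, Salmon, R 4.5.1, DESeq2 and build GRCm39, without roles. Annotation, strand and any rounding are not given in the sources used here. The authors deposited raw counts per gene and library, 1 table a line, as whole numbers. Overlapping and antisense genes cannot be told apart without strand. The authors also deposited a table per line with log2 fold changes and p-values, quoted as theirs. Titles gave the groups, and 0 columns of sample values were left out. Symbols came from GENCODE M21, matching 99.7% of identifiers in each table.

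Each line was fitted with edgeR 4.0.16 in R 4.3.3: filterByExpr, TMM, robust quasi-likelihood test, Benjamini-Hochberg adjustment at 0.05 over all genes. The interaction and the contrasts between lines used 1 fit of the 12 libraries. The BH3-only against anti-apoptotic value used log2 CPM with a prior count of 2. That value and the shares of genes whose groups did not overlap used TMM factors computed within each line. DESeq2 1.42.0, its size factors, no filter, at least 10 counts, the replicate block, 1 fit for both lines and leaving out each library were alternatives. The edgeR fits without the block were tested on simulated data, with results not reported here, and the blocked fit and DESeq2 were not. The members, lists and tests were chosen with earlier results of these data known. The text names all members, from each list at most 3 called genes with the smallest p (others by name alone), and up to 3 of the most similar genes with a mean of at least 50 counts; some genes that this rule names are not reported here.

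Libraries with the same number had deviations from the group means that correlated at 0.351, 0.436 and 0.211 in KPC4, all above 0.1, and at 0.428, -0.0548 and 0.102 in PSC4. The numbers were therefore taken to pair the KPC4 libraries, from the values alone, and blocked values stand beside the KPC4 results they change. Because the pairing was read from the same counts, the blocked p-values may be too small. Bmf had 12 to 111 counts per PSC4 library with Gem-SU, and every other member at least 90 counts in each library.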

Additional observations from a re-analysis of the deposited data

Results flagged for a closer look

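For 4 members the response of PSC4 to Gem-SU differed from that of KPC4 to Gem-PSC-SU by a test of the difference itself (edgeR's quasi-likelihood interaction with Benjamini-Hochberg adjustment, response of PSC4 minus that of KPC4, log2). Cell line and medium go together in this test and cannot be told apart. Groups that do not overlap were common, at 56.4% of all genes in PSC4 and 22.8% in KPC4. Pmaip1 had a difference of 2.388 (adjusted p = 0.002597), with all 3 Gem libraries above all controls in both lines. Bcl2l1 had a difference of 1.205 (adjusted p = 0.004289), being higher in 3 of 3 Gem-SU libraries of PSC4 and lower in 3 of 3 Gem-PSC-SU libraries of KPC4. Its fall in KPC4 alone was not called in any setting (adjusted p = 0.1826 in edgeR without the block). Mcl1 had a difference of 0.973 (adjusted p = 0.01236), with separate groups in PSC4 and overlapping ones in KPC4. Bmf had a difference of -4.041 (adjusted p = 0.02126), below the controls in 3 of 3 Gem-SU libraries, with overlapping groups in KPC4. Its interaction lost its call in 4 of the 12 fits that left out a library. With Gem-SU it held only 12 to 111 counts per library.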

How the results depend on the processing

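Of 500 combinations of a member's result and an alternative, 459 kept direction and side of the threshold, 16 lost a call, 17 gained one and 8 changed sign. Members called in PSC4 numbered 7 to 9 over the alternatives that keep all libraries and 6 to 9 when a library was left out. The called genes of PSC4 fell from 6177 to 4061 without Gem-SU replicate 2 and lay between that and 6826 for any library left out.

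In KPC4 members called went from 0 to 3 with the replicate block, 2 with DESeq2's test, 2 with 1 fit over the 12 libraries, and 0 to 2 when a library was left out (2 with Gem-PSC-SU replicate 1 left out, 1 with Control-PSC-SU replicate 2 left out). All called genes there went from 0 to 1171, 822, 610 and 0 to 1129. In PSC4, where the numbers were not taken to pair the libraries, the block left 9 members called and moved the called genes to 7266. Interaction calls went from 1343 to 2145 with DESeq2's test, 2988 with the block and 610 to 1993 when a library was left out, with 3 to 5 members called.

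Signs changed for 5 values that no setting called. The log2 difference of Mcl1 in KPC4 was 0.002 with DESeq2's size factors and -0.087 to 0.063 when a library was left out (0.026 in the case of Gem-PSC-SU replicate 3), and that of Bak1 there was -0.201 to 0.116. The interaction of Bcl2 was 0.019 with the replicate block and -0.53 to 0.38 when a library was left out. In the control contrast Bcl2l11 ran from -0.164 to 0.097 and Bax from -0.001 to 0.616. The BH3-only minus anti-apoptotic change in PSC4 ran from -0.025 without Gem-SU replicate 1 and -0.017 without Control-SU replicate 2 to 0.32 without Gem-SU replicate 3, and that in KPC4 from 0.789 to 1.175. The causes of these shifts were not tested. The lowest counts of any member were those of Bmf in PSC4 with Gem-SU, 12 to 111 per library.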
